A study of Sus scrofa with 24 samples.

Results

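The jejunal and the ileal mucosa of 6 healthy pigs were compared by quantitative RT-PCR, 12 of the 24 samples of the study, to describe the normal difference in gene expression along the small intestine. The members were chosen by sample title: the jejunal and the ileal mucosa from healthy pigs 1 to 6, each pig paired with itself. All target genes entered except TLR4, so 25 of 26 genes were used; the ileal Ct of TLR4 equalled the jejunal Ct in 6 of 6 healthy pigs.

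The healthy pigs were the control animals of a study of post-natal growth retardation (PGR), untreated Duroc × Landrace × Large Yorkshire crossbreds of the same paternal origin, 42 days old, fed commercial feed and killed after an overnight fast. The PGR group held 6 pigs of the same age, cross and feed, of low body weight without obvious disease or injury and pair-matched by litter, with both tissues taken. The mucosa was scraped, so each sample held epithelium together with the connective tissue and immune cells beneath it. The tissue field of the labels gave jejunal mucosa for all 12 healthy samples and ileal mucosa for all 12 PGR samples, and so named the other tissue for 6 healthy and 6 PGR samples; the tissue names used here rest on the titles and on the sample names in the tables. The panel held no gene that defines the jejunum or the ileum, such as lactase or the ileal bile acid transporter, and the labelled tissue could be set only beside GHRL and CCK, which are known to be more abundant in the proximal gut. Both were lower in the samples titled ileal, in 6 of 6 pigs on the raw Ct.

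The small intestine changes along its length. The jejunum takes up most sugars, amino acids and fats and is rich in endocrine cells that answer to food, whereas the ileum takes up bile acids and cobalamin and carries much of the lymphoid tissue of the gut wall. Endocrine cells scattered in the epithelium release peptides such as ghrelin, cholecystokinin and somatostatin, and enterochromaffin cells release serotonin, which is cleared by a transporter and acts through receptors on epithelium and nerves.

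Ct is the PCR cycle at which a product was detected, so a lower Ct means more transcript and 1 cycle is about a doubling. The level of a gene is its transcript relative to β-actin, given here with β-actin set to 1000. It depends on the primers of each assay as well as on the transcript, so levels were compared only within a gene. Differences are ileal minus jejunal on the log2 scale, and a negative value means a lower ileal level. A gene was called when the Benjamini-Hochberg adjusted p from limma on the paired differences was below 0.05. In scraped mucosa, fewer cells of a type and less RNA per cell cannot be told apart.

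Measured against β-actin, most of the genes were less abundant in the ileal mucosa. With other references this changed, as given below. Relative to β-actin, 13 of 25 genes were lower in the ileal mucosa (52%) and 4 were higher (16%), and 8 were not called. The median difference over the 25 genes was -0.71, and 18 were negative; the median was -0.41 with the blank levels recomputed and -0.42 without pig 6, which left 21 genes to test. The differences reached from -6.59 for GHRL to 1.70 for IL-6. Among the levels left in the files, all pairs of each of the 17 called genes went the same way, and the ileal and jejunal levels did not overlap for 14 of 25 genes (56%). With the blank levels recomputed 11 of these did not overlap, and Akt, IL-10 and mTOR did.

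**Figure D1:**
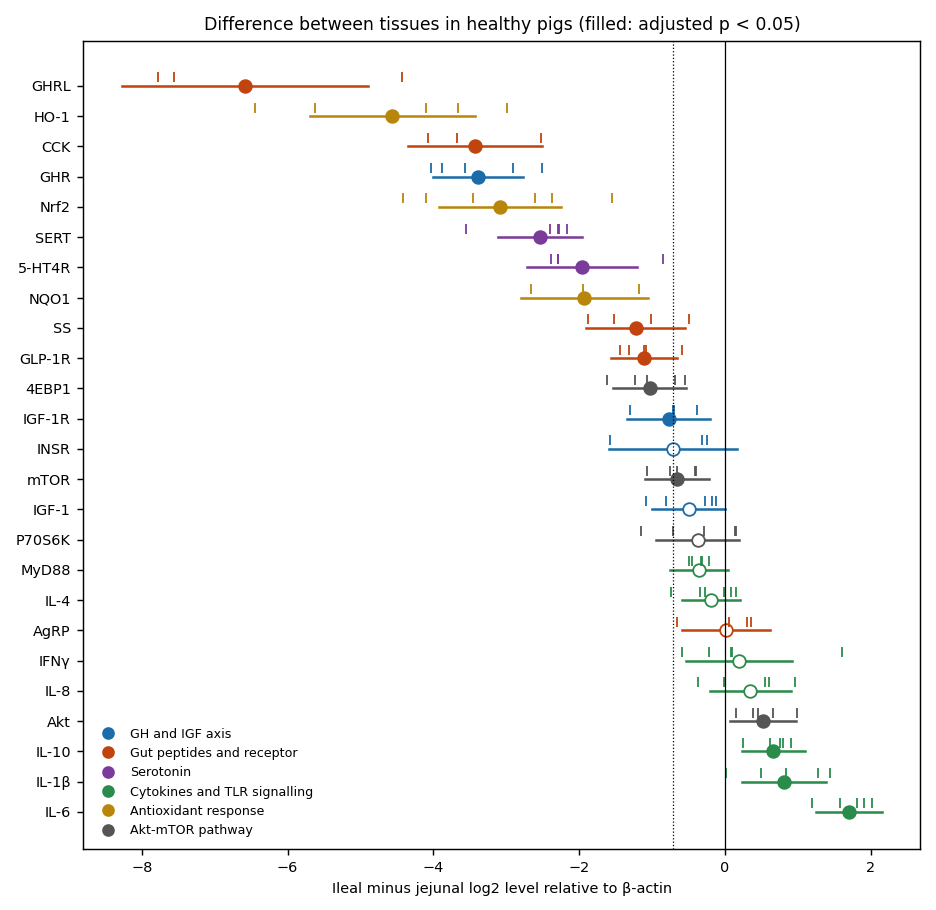
Difference between ileal and jejunal mucosa of healthy pigs for the 25 genes, as ileal minus jejunal log2 level relative to β-actin. Circles are means (filled where the adjusted p was below 0.05), horizontal lines 95% confidence intervals, small vertical ticks single pigs, colours the gene groups, and the dotted line the median of the 25 genes, -0.71. GHRL, HO-1, CCK, GHR and Nrf2 lie farthest to the left and IL-6 farthest to the right.

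The size of the tissue differences depended on the reference, and the direction of the smaller ones did too. With no reference gene, on the raw Ct, 9 genes were called lower and 3 higher, with a median of -0.32. With the mean Ct of the 25 targets as the reference, 7 were lower and 11 higher, with a median of 0.55, and the share of lower calls among all calls fell from 76.5% to 38.9%. That mean holds the strongly lower genes themselves, which moves the other genes up. GHRL, CCK, GHR, SERT, 5-HT4R, Nrf2 and HO-1 were called lower, and IL-6, IL-10 and Akt higher, with each of the 3 references.

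The deposited levels had gaps. Of the 25 genes' levels in healthy pigs 39 were blank, 21 jejunal and 18 ileal, although every Ct was present. The sources used here do not give the rule behind the blanks. Of the 37 that could be recomputed from the Ct, 34 lay above or below all kept values of their gene and tissue, and 3 lay within them. Where they lay outside, the kept values leave out extremes and their range is narrower than with the blanks recomputed. With the recomputed levels 12 genes were called lower and 2 higher, IL-1β and IL-6; IGF-1R, IL-10 and Akt were no longer called. Pairs numbered 3 for 4 genes, 4 for 4 genes, 5 for 15 genes and 6 for 2 genes.

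**Figure D2:**
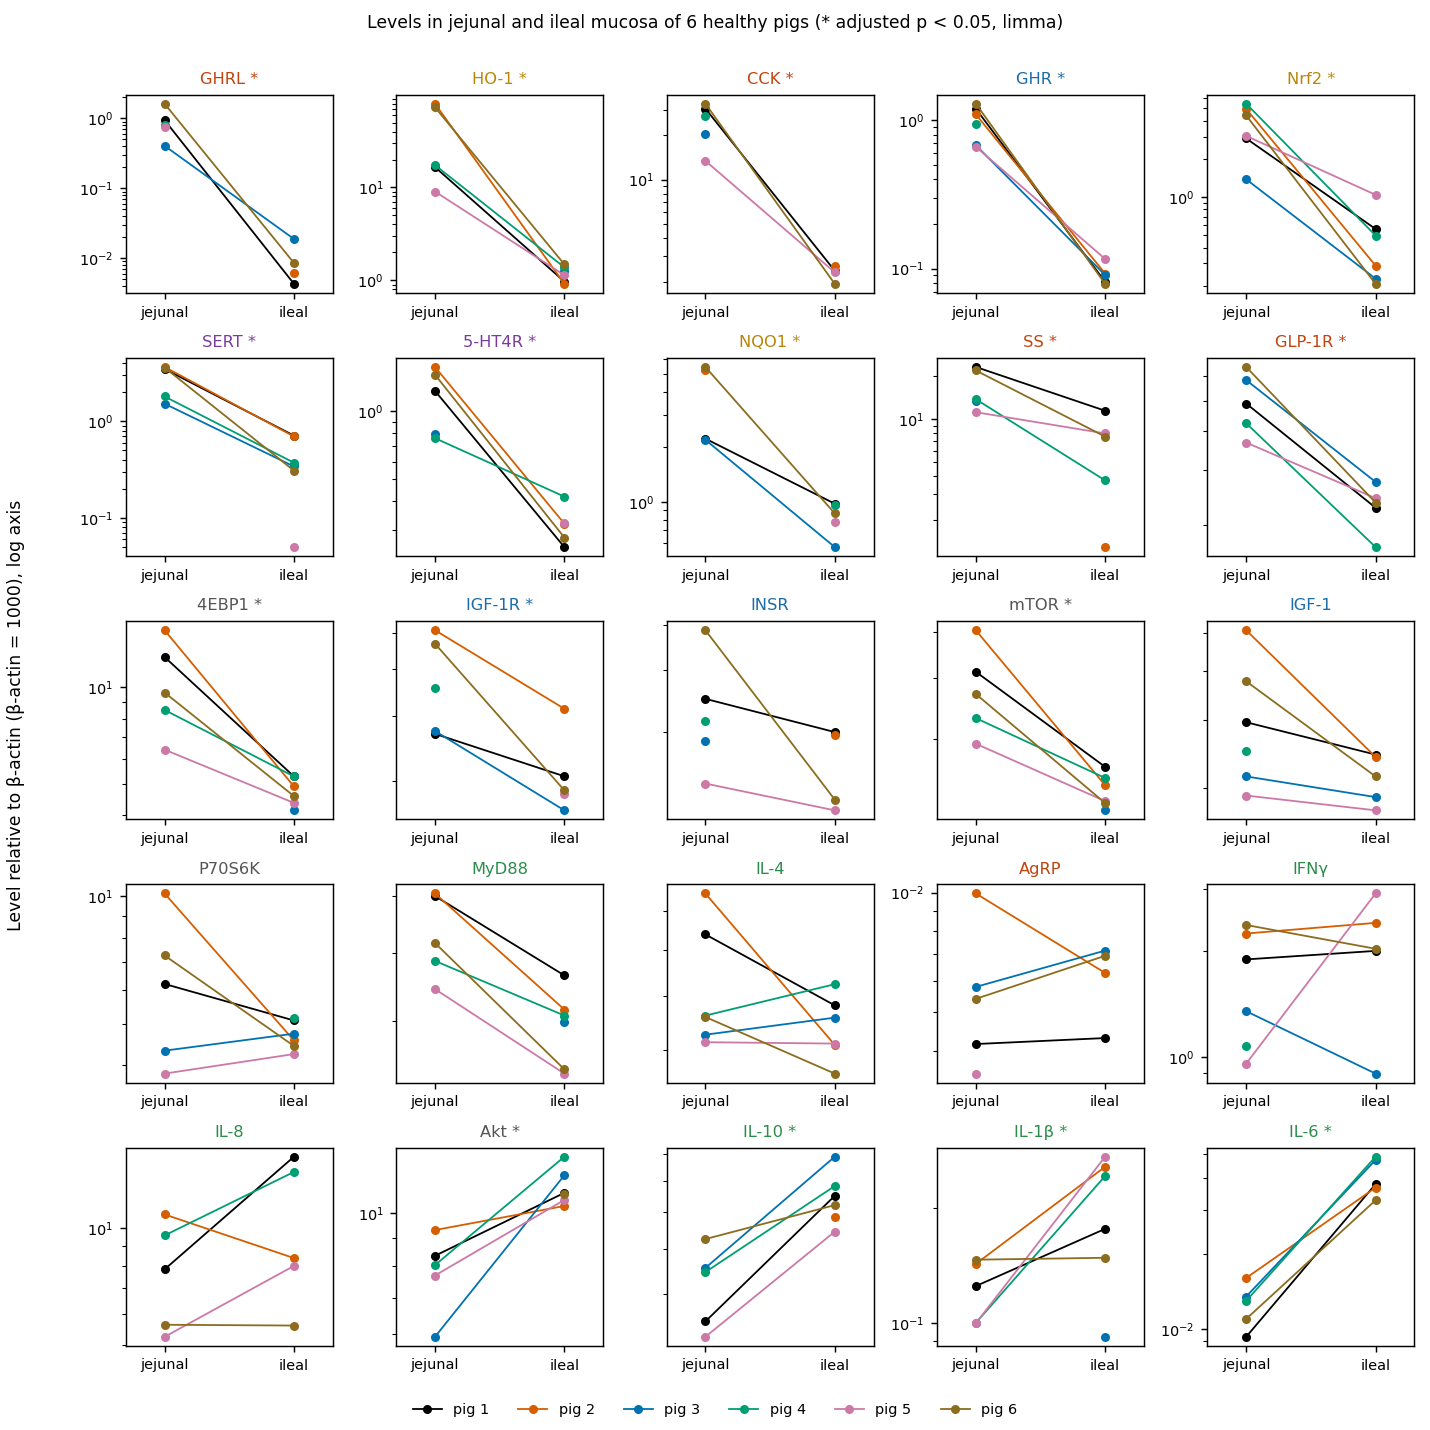
Level of each gene in jejunal and ileal mucosa of the 6 healthy pigs (β-actin set to 1000, log axis with a range of its own in each panel). Lines join the tissues of 1 pig, points without a line belong to pigs whose other level was blank, title colours mark the gene groups, and an asterisk marks an adjusted p below 0.05. Panels run from GHRL, at -6.59 on the log2 scale, to IL-6, at 1.70, and the lines of every panel with an asterisk run the same way.

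GHRL had the largest difference of the 25 genes, and most of the gut peptides were lower with it. Of the 5 genes of this group, GHRL, CCK, SS and GLP-1R were lower in the ileal mucosa, none was higher, and AgRP was not called, against 52% lower over all genes; the median was -1.23 against -0.71. GHRL encodes ghrelin, the peptide that stimulates appetite and growth hormone release and is made mainly in the stomach. Its jejunal level was 0.943, 0.405, 0.807, 0.761 and 1.62 in pigs 1, 3, 4, 5 and 6, and its ileal level 0.00431, 0.00613, 0.0189 and 0.00856 in pigs 1, 2, 3 and 6. Every jejunal value was at least an order of magnitude above every ileal one. Over the 3 pigs with both levels the difference was -6.59 (95% CI -8.28 to -4.90, adjusted p = 0.000381), a 96.2-fold lower ileal level (29.8 to 311). The SD of these 3 differences was 1.88, and the interval leans on the shared variance. The raw Ct rose from 23.8 ± 0.60 to 30.3 ± 1.1 (SD, n = 6), and with blanks recomputed the difference was -6.50 over 6 pigs (exact sign-flip p = 0.0312, the smallest that 6 pairs can give). The late ileal Ct is near that of AgRP, and in ileal pig 1 both assays read 31.6.

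CCK encodes cholecystokinin, the peptide that empties the gallbladder and stimulates pancreatic secretion after a meal. Its jejunal level was 30.5, 20.4, 26.9, 13.4 and 32.9 in pigs 1, 3, 4, 5 and 6, and its ileal level 2.39, 2.58, 2.33 and 1.94 in pigs 1, 2, 5 and 6. These jejunal values varied over 2.45-fold and these ileal ones over 1.33-fold, and they did not overlap. With the blanks recomputed the jejunal levels ran from 8.28 to 32.9 and the ileal ones from 1.81 to 6.26. The difference over 3 pairs was -3.43 (95% CI -4.34 to -2.51, adjusted p = 0.000405), a 10.8-fold lower ileal level. Jejunal pig 2, whose level was blank, had a CCK Ct of 21.4 against 18.7 to 19.6 in the other 5 pigs, and with the blanks recomputed the ileal level was 7.60-fold lower.

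SS encodes somatostatin, which restrains the release of other gut hormones. Its jejunal level was 22.98, 13.3, 13.7, 11.2 and 21.7 in pigs 1, 3, 4, 5 and 6, and its ileal level 11.4, 1.29, 3.75, 7.94 and 7.55 in pigs 1, 2, 4, 5 and 6. Among the kept levels the tissues overlapped only through ileal pig 1, and ileal pigs 2 and 4 were the low ones. The recomputed level of ileal pig 3, 11.5, also lay above jejunal pig 5. The difference was -1.23 (95% CI -1.90 to -0.55, adjusted p = 0.00783, 4 of 4 pairs). With the mean of the targets as the reference it was -0.56 and not called (adjusted p = 0.256).

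GLP-1R, the receptor of the insulin-releasing peptide GLP-1, had jejunal levels of 0.489, 0.582, 0.423, 0.367 and 0.641 in pigs 1, 3, 4, 5 and 6. The ileal levels of the same pigs were 0.226, 0.274, 0.169, 0.243 and 0.235, all below the lowest jejunal one. The difference was -1.11 (95% CI -1.57 to -0.66, adjusted p = 0.00148). It rests on β-actin readings that no other gene shared: on the raw Ct it was -0.48 (adjusted p = 0.175), and relative to the mean of the targets it was 0.41.

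AgRP, a neuropeptide that drives feeding and is best known from the hypothalamus, had jejunal levels of 0.00351 to 0.00995 and ileal levels of 0.00431 to 0.00715, with a difference of 0.01 (95% CI -0.59 to 0.62, adjusted p = 0.962). Ileal pigs 4 and 5, whose levels were blank, had a Ct of 28.5 and 27.6 against 30.4 to 31.6 in the other 4 pigs, and with the blanks recomputed the difference was 1.52 (adjusted p = 0.158). With the mean of the targets as the reference AgRP was called higher, at 1.33 (adjusted p = 0.00175).

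Both serotonin genes were lower in the ileal mucosa, against 52% lower over all genes, and the group median was -2.25 against -0.71. SERT, the transporter that takes serotonin back up into epithelial cells, had jejunal levels of 3.504, 3.68, 1.53, 1.82 and 3.63 in pigs 1, 2, 3, 4 and 6. Its ileal level was lowest in pig 5, at 0.0497, and lay between 0.309 and 0.713 in the other 5 pigs (median of all 6, 0.357). No ileal value reached a jejunal one. The difference was -2.54 (95% CI -3.11 to -1.96, adjusted p = 0.000111, 5 of 5 pairs), a 5.81-fold lower ileal level; pig 5 took no part in it, as its jejunal level was blank, and with it recomputed the ileal level was 7.49-fold lower. 5-HT4R, a serotonin receptor that promotes motility and secretion, had jejunal levels of 1.23, 1.57, 0.795, 0.761 and 1.45 in pigs 1, 2, 3, 4 and 6. Its ileal level was 0.252, 0.319, 0.420, 0.321 and 0.277 in pigs 1, 2, 4, 5 and 6. The tissues did not overlap, and among the kept levels pig 4 had both the lowest jejunal and the highest ileal one. The recomputed level of jejunal pig 5, 0.646, was lower. On the raw Ct ileal pig 4 had the least 5-HT4R transcript of the 6 pigs, at 26.85, and its level was set against a β-actin Ct of 15.6. The difference was -1.96 (95% CI -2.71 to -1.21, adjusted p = 0.00148, 4 of 4 pairs), a 3.88-fold lower ileal level.

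The antioxidant genes had the lowest median of the gene groups: Nrf2, HO-1 and NQO1 were all lower in the ileal mucosa, against 52% lower over all genes, and the median was -3.08 against -0.71. Nrf2 is the transcription factor that switches on genes of the antioxidant response, among them the other two of this group. The Nrf2 level was 1.38 to 5.45 in jejunal mucosa (median 3.72, n = 6) and 0.207 to 1.04 in ileal mucosa (median 0.393, n = 6), with jejunal pig 3 lowest and ileal pig 5 highest. All 6 pairs were lower in the ileal mucosa, pig 5 by the smallest and pig 6 by the largest amount. The mean difference was -3.08 (95% CI -3.92 to -2.245, adjusted p = 0.000113, exact sign-flip p = 0.0312), an 8.46-fold lower ileal level.

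HO-1 encodes heme oxygenase 1, which breaks down heme. Its jejunal level was 16.6, 79.8, 17.4, 9.04 and 73.1 in pigs 1, 2, 4, 5 and 6, whereas the 6 ileal levels lay between 0.915 and 1.48 (median 1.20). Pigs 2 and 6 stood apart in the jejunum and not in the ileum. Their jejunal HO-1 Ct, 18.12 and 18.01 against 19.6 to 20.1 in the other 4 pigs, was the lowest before any normalization. Jejunal levels varied over 8.84-fold and ileal ones over 1.62-fold. The difference was -4.56 (95% CI -5.70 to -3.43, adjusted p = 0.000113, 5 of 5 pairs), a 23.7-fold lower ileal level. NQO1, a quinone reductase, had jejunal levels of 2.22, 5.25, 2.19 and 5.46 in pigs 1, 2, 3 and 6. Its ileal level was 0.979, 0.567, 0.965, 0.780 and 0.866 in pigs 1, 3, 4, 5 and 6. Jejunal pigs 2 and 6 were again the high ones, and the tissues did not overlap. The jejunal NQO1 Ct was 21.75 in pig 6, 22.05 in pig 2 and 22.04 in pig 3, so pig 2 did not stand apart before normalization. The difference over 3 pairs was -1.93 (95% CI -2.80 to -1.05, adjusted p = 0.00411); relative to the mean of the targets it was -0.61 and not called (adjusted p = 0.103).

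In the growth hormone and IGF axis the receptor of growth hormone had the largest difference. Of the 4 genes GHR and IGF-1R were lower in the ileal mucosa, none was higher, and IGF-1 and INSR were not called; this is near the 52% lower over all genes, and the median of -0.74 is near the -0.71 over all genes. GHR, the receptor through which growth hormone acts, had a jejunal level of 0.664 to 1.29 (median 1.02, n = 6) and ileal levels of 0.0813, 0.0925, 0.0904, 0.116 and 0.0789 in pigs 1, 2, 3, 5 and 6. These ileal values lay within 1.47-fold of each other and far below the lowest jejunal one. The recomputed level of ileal pig 4 was higher, at 0.375, and still below every jejunal one. The difference was -3.38 (95% CI -4.002 to -2.76, adjusted p = 4.55e-05, 5 of 5 pairs), a 10.4-fold lower ileal level, and 8.23-fold with the blank recomputed.

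IGF-1R, the receptor of the growth factor IGF-1, had jejunal levels of 2.68, 5.08, 2.73, 3.56 and 4.68 in pigs 1, 2, 3, 4 and 6. Its ileal level was 2.06, 3.13, 1.67, 1.85 and 1.89 in pigs 1, 2, 3, 5 and 6. Ileal pig 2 lay above jejunal pigs 1 and 3, so the tissues overlapped. The difference was -0.77 (95% CI -1.34 to -0.21, adjusted p = 0.0229, 4 of 4 pairs). Without pig 3 the adjusted p was 0.0516, and with the blanks recomputed the difference was -0.28 (adjusted p = 0.482). On the raw Ct it was -0.41 (adjusted p = 0.291), and relative to the mean of the targets it was 0.55 (adjusted p = 0.0547).

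IGF-1 itself, the growth factor made in answer to growth hormone, had a jejunal level of 1.91 to 5.10 (median 2.72, n = 6) and ileal levels of 2.44, 2.40, 1.90, 1.75 and 2.14 in pigs 1, 2, 3, 5 and 6. Its difference was -0.50 (95% CI -0.996 to 0.01, adjusted p = 0.072), negative in 5 of 5 pairs, and 0.67 relative to the mean of the targets, where it was called higher (adjusted p = 0.00629). INSR, the insulin receptor, had jejunal levels of 2.48, 1.89, 2.15, 1.44 and 3.87 in pigs 1, 3, 4, 5 and 6. Its ileal level was 2.00, 1.96, 1.21 and 1.29 in pigs 1, 2, 5 and 6. Over 3 pairs its difference was -0.71 (95% CI -1.60 to 0.17, adjusted p = 0.118), most of it from pig 6. On the raw Ct of all 6 pigs it was called lower, at -0.45 (adjusted p = 0.0358), with a higher ileal Ct in 6 of 6 pigs, and with the mean of the targets and no blanks it was called higher, at 0.44 (adjusted p = 0.0135).

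The cytokines and MyD88 ran the other way or did not pass the test. Of the 7 genes none was lower and 3 were higher in the ileal mucosa, against 52% lower and 16% higher over all genes, and the median was 0.35 against -0.71. With the β-actin readings behind Nrf2 used for every gene, the median of the group turned to -0.19. IL-6, a cytokine that drives acute-phase and B-cell responses, was the clearest. Its jejunal level was 0.00933, 0.0160, 0.0135, 0.0130 and 0.0110 in pigs 1, 2, 3, 4 and 6, and its ileal level in the same pigs 0.0379, 0.0367, 0.0473, 0.0488 and 0.0327. Every ileal value was above every jejunal one. The difference was 1.70 (95% CI 1.25 to 2.16, adjusted p = 0.000149), a 3.26-fold higher ileal level, and it was 2.19 on the raw Ct and 1.74 with the blanks recomputed.

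IL-10, a cytokine that restrains inflammation, had jejunal levels of 0.348, 0.455, 0.445, 0.323 and 0.525 in pigs 1, 3, 4, 5 and 6. The ileal level lay between 0.544 and 0.790 in the 6 pigs (median 0.636), just above these jejunal levels, but the recomputed level of jejunal pig 2, 1.004, was above every ileal one. The difference was 0.66 (95% CI 0.23 to 1.09, adjusted p = 0.0148, 5 of 5 pairs); it was 0.42 with the blanks recomputed (adjusted p = 0.201), and without pigs 1 and 3 in turn it was no longer called (highest adjusted p = 0.0627). IL-1β, a cytokine that starts inflammation, had jejunal levels of 0.125, 0.143, 0.100, 0.100 and 0.147 in pigs 1, 2, 4, 5 and 6. Its ileal level was 0.0923 to 0.272 (median 0.209, n = 6), with pig 3 below these jejunal levels. The recomputed jejunal level of pig 3, 0.0431, was lower than its ileal one. The difference was 0.81 (95% CI 0.23 to 1.39, adjusted p = 0.0201), higher in 5 of 5 pairs but by only 0.02 in pig 6. With the blank recomputed it was 0.86, higher in 6 of 6 pigs. In pig 4 the raw IL-1β Ct was 27.0 in jejunal and 28.1 in ileal mucosa, which means less ileal transcript. Its ileal level was set against the outlying β-actin Ct of 16.1.

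The direction of IL-1β depended on which β-actin readings were used. The ileal levels of IL-1β and IL-8 were set against readings of their own; with the ileal readings that served Nrf2 the IL-1β difference was -0.35, and on the raw Ct it was 0.25 (adjusted p = 0.544). Without pig 4 or pig 5 it was not called (highest adjusted p = 0.068).

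IL-8, IFNγ, MyD88 and the IL-4 assay were not called relative to β-actin. With the mean of the targets IFNγ (1.36, adjusted p = 0.00175), MyD88 (1.09, adjusted p = 0.00198) and the IL-4 assay (1.15, adjusted p = 0.000265) were called higher. IL-8, which attracts neutrophils, differed by 0.35 (95% CI -0.21 to 0.90, adjusted p = 0.21), and in pig 6 its Ct was the same, 21.7, in both tissues. IFNγ, a product of T and natural killer cells, differed by 0.19 (95% CI -0.54 to 0.92, adjusted p = 0.579), with 3 of 5 pairs higher. MyD88, the adaptor of Toll-like receptors, differed by -0.36 (95% CI -0.76 to 0.04, adjusted p = 0.0905), negative in 5 of 5 pairs and called lower when the tissues were not paired (adjusted p = 0.041). The 5 MyD88 differences had an SD of only 0.11, below the standard error of 0.17 that limma gave with the shared variance. The IL-4 assay, whose description in the tables is interleukin 4 receptor, differed by -0.19 (95% CI -0.59 to 0.21, adjusted p = 0.34).

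The 4 genes of the Akt-mTOR pathway, which links growth factor and amino acid supply to protein synthesis, had 2 lower, 1 higher and 1 not called, near the shares over all genes (52% lower, 16% higher). 4EBP1, a repressor of translation that mTOR switches off, had jejunal levels of 12.4, 15.1, 8.51, 6.40 and 9.64 in pigs 1, 2, 4, 5 and 6 and a 6-pig ileal range of 4.15 to 5.29 (median 4.76). The difference was -1.03 (95% CI -1.53 to -0.53, adjusted p = 0.0038, 5 of 5 pairs). Among the kept levels the jejunal values were all higher and much more spread than the ileal ones. The recomputed level of jejunal pig 3, 5.31, was just above the highest ileal one. On the raw 4EBP1 Ct of all 6 pigs the SD was 0.32 cycles in jejunal and 0.21 in ileal mucosa. mTOR, the kinase at the centre of the pathway, had jejunal levels of 4.13, 5.04, 3.31, 2.93 and 3.71 in pigs 1, 2, 4, 5 and 6 and an ileal range of 2.13 to 2.62 (median 2.31, n = 6), and the recomputed level of jejunal pig 3, 2.51, lay within the ileal range. Its difference was -0.66 (95% CI -1.10 to -0.22, adjusted p = 0.0155, 5 of 5 pairs), and without pig 1 the adjusted p was 0.0503. Both lost their call on the raw Ct, at -0.43 (adjusted p = 0.191) and -0.06 (adjusted p = 0.814). Relative to the mean of the targets 4EBP1 was 0.42 (adjusted p = 0.0725), and mTOR turned to a call in the higher direction, at 0.79 (adjusted p = 0.00536).

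Akt, the kinase upstream of mTOR, was the gene of the group that was higher. Its jejunal level was 8.35, 9.31, 5.93, 8.03 and 7.69 in pigs 1 to 5, and the ileal level 10.3 to 12.7 in the 6 pigs (median 10.9). These ranges did not overlap, but the recomputed level of jejunal pig 6, 13.3, was above every ileal one. The difference was 0.53 (95% CI 0.08 to 0.98, adjusted p = 0.0407, 5 of 5 pairs). It lost the call without pig 1, 3, 4 or 5 (highest adjusted p = 0.141) and with the blanks recomputed (0.39, adjusted p = 0.158). P70S6K, a kinase that mTOR activates, had jejunal levels of 6.22, 10.2, 4.32, 3.82 and 7.26 in pigs 1, 2, 3, 5 and 6 and an ileal range of 4.25 to 5.15 (median 4.66, n = 6). It differed by -0.37 (95% CI -0.94 to 0.20, adjusted p = 0.201), with 3 of 5 pairs lower, and relative to the mean of the targets it was called higher, at 0.97 (adjusted p = 0.000783).

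β-actin set the scale of these comparisons, and its own Ct differed between tissues by an amount that depended on the reading. The β-actin Ct recovered behind each level fell, for the 25 genes, into 3 sets in jejunal mucosa and 4 in ileal mucosa. In the set behind Nrf2, used for the jejunal levels of 13 genes and the ileal levels of 11, it was 13.8 ± 0.51 in jejunal and 13.3 ± 0.22 in ileal mucosa (SD, n = 6), a difference of -0.45 cycles (exact sign-flip p = 0.156). In the set behind IGF-1, used for 11 genes in each tissue, the difference was 0.04 cycles (exact p = 0.906), with ileal pig 4 at 15.6 against 13.25 to 13.7 in the other 5, and -0.32 without pig 4. In the readings behind GLP-1R it was -0.63 cycles, lower in the ileal mucosa in 5 of 5 pigs (exact p = 0.0625, the smallest that 5 pairs can give). In the ileal readings behind IL-1β and IL-8, set against the jejunal readings of the same genes, it was 0.51 cycles (exact p = 0.188), with ileal pig 4 at 16.1, and 0.14 cycles without pig 4.

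**Figure D3:**
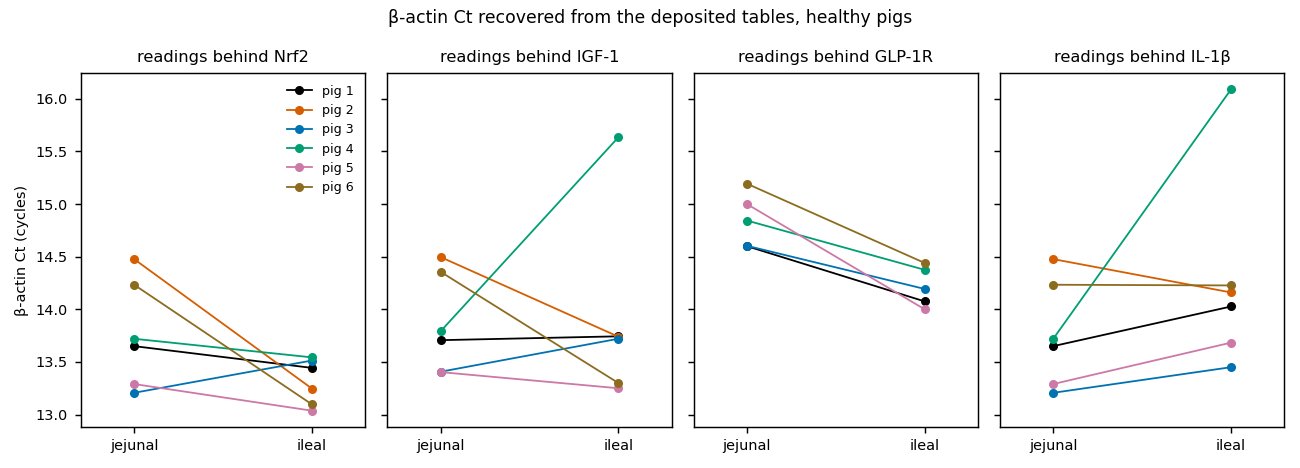
β-actin Ct of each healthy pig in jejunal and ileal mucosa, in cycles, for the readings behind Nrf2, IGF-1, GLP-1R and IL-1β. Lines join the tissues of 1 pig. Jejunal pigs 2 and 6 have the highest Ct of the readings behind Nrf2, 14.5 and 14.2, and ileal pig 4 reads 15.6 behind IGF-1 and 16.1 behind IL-1β but 13.5 behind Nrf2.

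With the blanks recomputed, jejunal pig 2 had the highest level of the 6 pigs for 17 of 25 genes and pig 6 for 7, and they had the highest β-actin Ct; on the raw Ct each had the most transcript for 2 genes. Jejunal pig 5 had the lowest level for 14 genes, and ileal pig 4 the highest for 12, against 1 on the raw Ct. Ileal pig 3 had the lowest level for 8 genes and also the highest Ct for 10, with a β-actin Ct behind Nrf2 of 13.51. The spread between pigs was open to the blanks as well. Among kept levels the jejunal SD was larger than the ileal one for 18 of 25 genes, with a median SD of 0.48 against 0.28 on the log2 scale. With the blanks recomputed it was larger for 13 genes, 0.57 against 0.60, and on the raw Ct for 11.

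The size of even the called differences moved with the reference. The ileal level of GHRL was 96.2-fold lower relative to β-actin, 81.7-fold on the raw Ct and 41.6-fold relative to the mean of the targets. That of HO-1 was 23.7-fold, 15.6-fold and 8.68-fold lower, that of GHR 10.4-fold, 8.34-fold and 4.66-fold lower, and that of IL-6 3.26-fold, 4.57-fold and 9.12-fold higher. The raw Ct of all 6 pigs was higher in the ileal mucosa in every pig for 10 genes and lower in every pig for 3, IL-6, IL-10 and Akt (exact sign-flip p = 0.0312 each).

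**Figure D4:**
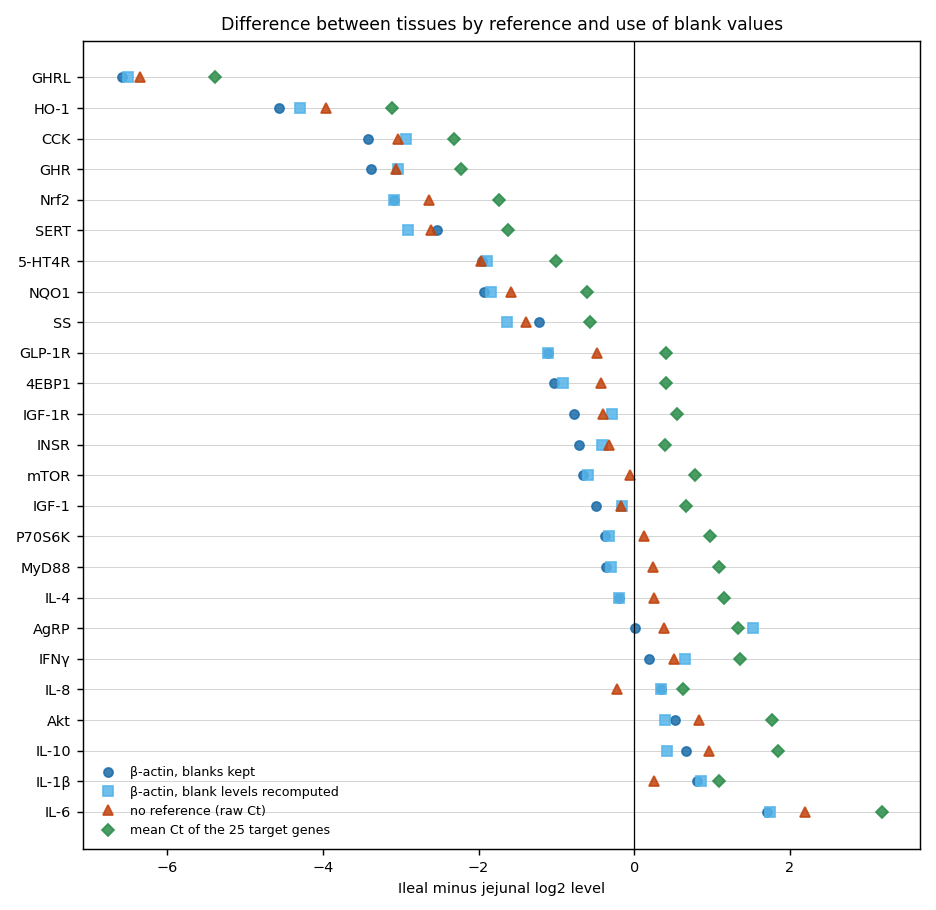
Ileal minus jejunal log2 level of the 25 genes in healthy pigs under 4 settings: relative to β-actin with blanks kept (circles), relative to β-actin with blanks recomputed (squares), on the raw Ct (triangles) and with the targets' mean Ct as reference (diamonds). Triangles and diamonds leave out pairs with a blank level. GHRL is at -6.59, -6.50, -6.35 and -5.38, and genes such as GLP-1R, 4EBP1 and mTOR lie to the right of 0 with the mean of the targets.

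The same difference was measured in the PGR pigs. GHRL differed by -5.60 ± 2.1 (SD, n = 4), CCK by -2.74 ± 0.59 (n = 5), GHR by -2.31 ± 1.5 (n = 5), HO-1 by -2.77 ± 1.8 (n = 5), Nrf2 by -1.68 ± 2.0 (n = 5) and IL-6 by 1.90 ± 0.67 (n = 4). Nrf2 and HO-1 were each above 0 in 1 PGR pig, whereas they were lower in every healthy pair. Neither passed the exact permutation test between healthy and PGR pigs described next (unadjusted p = 0.167 for Nrf2 and 0.135 for HO-1). The difference between healthy and PGR pigs was tested gene by gene with an exact permutation of the growth groups, which left out the matching by litter, since the labels do not say which pigs shared a litter: 2 of 25 genes had an unadjusted p below 0.05 (8%), and none passed after adjustment. SERT differed by -3.98 ± 0.56 in PGR pigs (n = 4), 1.44 log2 units further down than in healthy pigs (exact p = 0.0238, adjusted p = 0.298). Akt differed by 0.05 ± 0.27 (n = 6), against 0.53 in healthy pigs (exact p = 0.0108, adjusted p = 0.271). Both lost the unadjusted threshold with the blanks recomputed, at p = 0.563 and 0.13 by the exact permutation, and on the raw Ct, at 0.0635 and 0.225. Akt lost it with the mean of the targets too (exact p = 0.134), and SERT without healthy pig 1, 2, 3 or 4 (exact p = 0.0571 each).

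**Figure D5:**
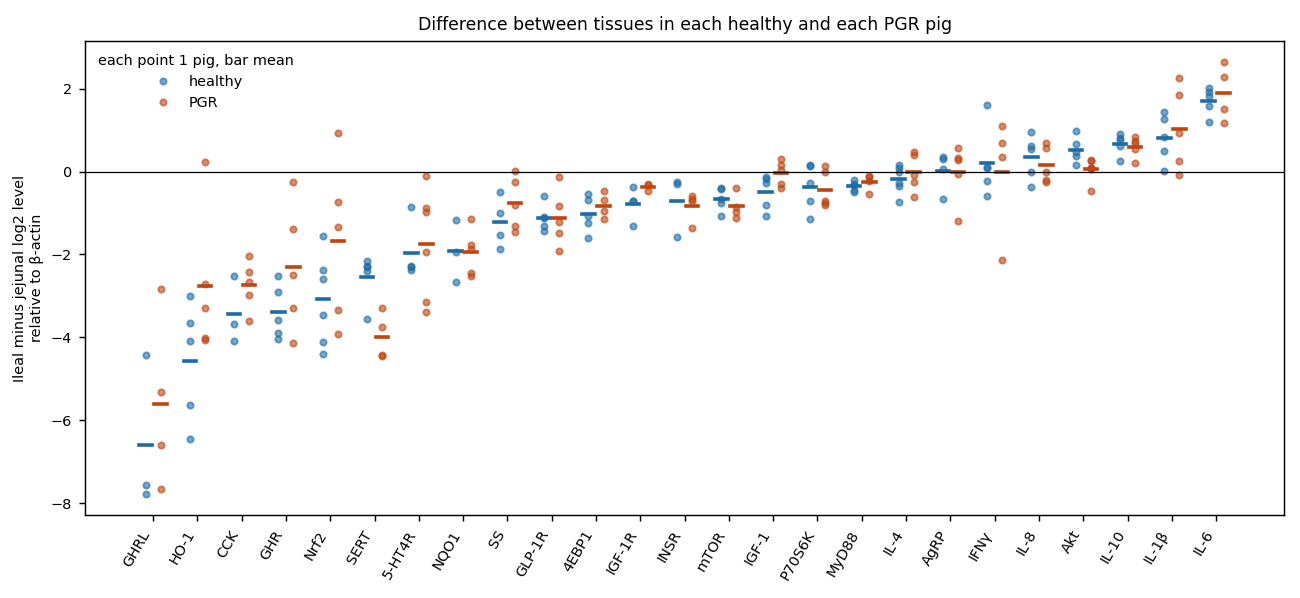
Ileal minus jejunal log2 level relative to β-actin in each healthy (blue) and each PGR (red) pig for the 25 genes, ordered by the healthy mean. Points are pigs with both levels and bars the means of the group. The healthy and PGR means of SERT are -2.54 and -3.98 and those of Akt 0.53 and 0.05.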

How the data were processed

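Total RNA of scraped mucosa was reverse transcribed and measured with SYBR Green in triplicate wells on a LightCycler. The authors deposited 1 table of mean Ct per pig and gene (cycles, no normalization) and 1 table in which the unit is a ratio, transcript over β-actin (2 to the power of minus ΔCt), with some values blank. A table of PGR folds over healthy pigs was not used. An efficiency correction, the rule behind the blanks and the plate layout are not given in the sources used here, and whether both tissues shared plates was not tested. Single wells were not analysed here, so the precision of 1 Ct is unknown.

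The ratio was multiplied by 1000 and log2 transformed with no pseudocount. Ileal minus jejunal differences of each pig were tested with limma 3.58.1 (R 4.3.3) for genes with at least 3 pairs, with Benjamini-Hochberg adjustment over 25 genes. Each gene also had a two-sided exact sign-flip test (Python 3.11.15, smallest p 0.0312 for 6 pairs and 0.0625 for 5). The pairing came from the titles, which name the pig. The deviations of the 2 tissues of a pig from the tissue means correlated over the 25 genes at 0.37, -0.28, 0.06, -0.11, 0.38 and 0.30 for pigs 1 to 6. The β-actin Ct behind a level was found by adding its log2 ratio to the Ct of the gene, with a tolerance of 0.02 cycles for 1 set, and blank levels were recomputed from it. The fit and the sign-flip test were tested on simulated data. For the fit these were 2000 genes, with shifts larger than most differences found here and blanks placed at random. The simulation therefore does not give the power of the fit for these 25 genes.

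All 25 genes are named, with values per pig, or the range and median where 6 pigs had a level, for called genes and for the 3 uncalled genes with the largest differences. Members and gene groups were chosen with earlier results of these data known. The labels describe 25 of 26 assays by an accession that matched a RefSeq gene, and IL-6 was the exception. Alternatives were other references, recomputed blanks, unpaired, exact and linear-scale tests, a filter at a mean Ct of 30 and leaving out each pig. Added after seeing the data were 2 references with no blanks, and the exact test and the overlap count with blanks recomputed. Leaving out pigs in the PGR comparison was also added then.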

Additional observations from a re-analysis of the deposited data

Results flagged for a closer look

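Dixon's ratio was applied to 57 sets of levels or β-actin readings of the healthy pigs, and 3 stood out. The usual chance rate of about 1 in 20 cannot be set beside this count, since many extreme levels were blank. Both β-actin flags also came from ileal pig 4. The ileal SERT level of pig 5, at 0.0497, lay far below the 0.309 to 0.713 of the other 5 pigs. On the raw Ct ileal SERT read 27.5 in pig 5 and 27.0 in pig 4, against 24.2 to 25.2 in the others. The SERT level of pig 4, 0.373, was set against the outlying β-actin Ct given next. The ileal β-actin Ct of pig 4 was 15.6 in the readings behind IGF-1 against 13.25 to 13.7 in the other 5 pigs. It was 16.1 in the readings behind IL-1β against 13.45 to 14.2 in the others.

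The tissue difference of SERT was 1.44 log2 units lower in PGR than in healthy pigs (a difference of -1.44 with an exact permutation p of 0.0238 and 0.298 after adjustment). The 5 healthy pairs lay between -3.55 and -2.16 and the 4 PGR pairs between -4.44 and -3.30. Healthy pig 5 took no part, as its jejunal level was blank. Recomputed, that level was 1.33, against an ileal level of 0.0497. With the blanks recomputed the difference between the groups was -0.51 (exact permutation p = 0.563). The tissue difference of Akt was lower by -0.48 in PGR pigs (exact permutation p = 0.0108, adjusted p = 0.271). It lay between 0.15 and 0.98 in the 5 healthy pairs, and in the 6 PGR pairs it was 0.27, 0.26, 0.07, 0.09, -0.47 and 0.07. With the blanks recomputed the difference between the groups was -0.34 (exact permutation p = 0.13).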

How the results depend on the processing

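GHRL, CCK, GHR, SERT, 5-HT4R, Nrf2 and HO-1 kept their direction and call in every limma fit that could be made, and IL-6 did so too. GHRL, CCK, INSR and NQO1 have 3 pairs and could not be refitted without a pig. Leaving out each pig in turn left 9 to 13 genes lower and 2 to 4 higher; IGF-1R was lost without pig 3, IL-1β without 4 or 5, IL-10 without 1 or 3, Akt without 1, 3, 4 or 5, and mTOR without pig 1. AgRP then ranged from -0.10 to 0.24 and IFNγ from -0.16 to 0.39. Without the pairing by pig (no replicate block) 14 genes were lower and 3 higher, with MyD88 gained and IL-1β lost.

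The exact sign-flip test called 0 genes lower and 0 higher after adjustment, as did the linear scale and the exact test with blanks recomputed (0 and 0), since 5 pairs cannot give a p below 0.0625 and the 6-pair minimum of 0.0312 adjusted to 0.0601 with blanks recomputed; unadjusted, 1 gene was below 0.05 with blanks kept, and 11 lower and 2 higher with blanks recomputed. On the linear scale AgRP was -0.036. With blanks recomputed 2 genes were higher. The median over the 25 genes was -0.32 on the raw Ct, with or without the blanks, and with the mean of the targets it reversed to 0.55, or 0.57 with no value left blank.

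With the mean of the targets 7 genes were lower and 11 higher, and with no value left blank 7 and 16, with IGF-1R, INSR, GLP-1R, IL-8 and 4EBP1 gained in the higher direction (IL-8 at 0.72, adjusted p = 0.0396). Reversed there, with the value for no blanks second, were IGF-1 (0.67, 0.70), IGF-1R (0.55, 0.57), INSR (0.40, 0.44), GLP-1R (0.41, 0.45), the IL-4 assay (1.15, 1.15), MyD88 (1.09, 1.04), mTOR (0.79, 0.75), 4EBP1 (0.42, 0.42) and P70S6K (0.97, 1.01). On the raw Ct, again with the second value for no blanks, the IL-4 assay (0.26, 0.26), IL-8 (-0.22, -0.17), MyD88 (0.24, 0.15) and P70S6K (0.13, 0.12) reversed. With 1 set of β-actin readings a tissue, that behind Nrf2 reversed AgRP (-0.19), IL-1β (-0.35) and IL-8 (-0.82), and that behind IGF-1 reversed the IL-4 assay (0.30), IL-8 (-0.23) and MyD88 (0.22). The causes were not tested beyond the change of reference itself.

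The β-actin difference behind IGF-1 was between -0.32 and 0.26 cycles when each pig was left out. Unpaired, the readings behind GLP-1R differed by -0.63 cycles with an exact permutation p of 0.00794. Genes with an unadjusted difference between healthy and PGR pigs numbered 1 on the raw Ct, which was HO-1 (exact permutation p = 0.0476), 2 with the mean of the targets, SERT (exact p = 0.0476) and IL-8 (-1.28, exact p = 0.0238), and 0 with blanks recomputed; HO-1 and IL-8 are named here after their values were seen.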
